A study of Caenorhabditis elegans with 2 samples.

Results

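Oxidative phosphorylation genes are the nuclear genes that encode the mitochondrial respiratory chain and the ATP synthase. They were taken here as every nuclear protein-coding gene of Caenorhabditis elegans whose name begins with nuo-, cox-, ucr- or atp-, together with gas-1, isp-1, cyc-1, clk-1, mev-1, mai-1 and mai-2. The rule found 38 genes among 19973 nuclear protein-coding genes of the WBcel235 annotation (build ce11). They comprise 7 complex I genes, 1 complex II gene, 7 complex III genes, 7 subunit genes and 8 assembly genes of complex IV, 5 ATP synthase genes, 2 ATP synthase inhibitor genes and 1 gene of ubiquinone synthesis.

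The respiratory chain passes electrons from NADH, at complex I, and from succinate, at complex II, through the lipid carrier ubiquinone to complex III, then through cytochrome c to complex IV, which reduces oxygen. Complexes I, III and IV pump protons across the inner mitochondrial membrane, and the ATP synthase uses the returning protons to make ATP. In C. elegans, mutations that slow the chain, such as those in isp-1 and clk-1, lengthen life, whereas those in mev-1 and gas-1 shorten it and sensitise the animals to oxygen. DAF-16 is the FOXO transcription factor of the worm, held in the cytoplasm by insulin-like signalling and known for its roles in lifespan, stress resistance and dauer formation.

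Binding of DAF-16 was mapped by ChIP-seq, the sequencing of immunoprecipitated chromatin, in 1 group of 2 biological replicates with no comparison group. Both were whole L4 larvae of strain XE1464, with males and females pooled and age given as unknown. The strain carried the unc-119(ed3) III background and an inserted transgene for DAF-16 with GFP and FLAG at its C terminus, so DNA bound by tagged DAF-16 in all tissues was mixed. Strong binding in a few cells and weak binding in many cannot be told apart in such samples.

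A gene was called bound if the summit of a peak in the authors' IDR-thresholded list (irreproducible discovery rate, a comparison of peak ranks in both replicates) lay between 1000 bp before and 300 bp after any of its annotated transcript starts. The IDR list held 8777 peaks, of which 8748 were nuclear and 4693 lay in at least 1 such window. The full lists, background regions included, held 16146 peaks in replicate 1 and 21378 in replicate 2. Signal is the authors' score of a peak, on an unstated scale, and ranks peaks within a list. A peak called stronger in 1 replicate has the higher deposited score there, and the lists were not put on a common scale. Of all bound genes, 69.6% had the higher score in replicate 1. Read depth is unknown, because the files give no read counts. For each peak of the IDR list, the replicate signal given is that of the nearest summit within 100 bp in the replicate's own list.

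DAF-16 peaks stood at the promoters of most of the oxidative phosphorylation genes, and the counts differed between complexes. Of the 38 genes, 23 were bound (60.5%, 95% Wilson interval 44.72 to 74.4), against 4779 of all 19973 nuclear protein-coding genes (23.9%). All 5 ATP synthase genes, both inhibitor genes and the complex II gene were bound, as were 6 of the 7 complex IV subunit genes (85.7%, 48.69 to 97.43) and 5 of the 7 complex III genes (71.4%, 35.89 to 91.78). Complex I had 3 of 7 bound (42.9%, 15.82 to 74.95), complex IV assembly 1 of 8 (12.5%, 2.24 to 47.09), and the single ubiquinone synthesis gene in the set was unbound. The intervals cover counting error only, treat genes as independent and overlap between most of the groups. No test of the difference between complexes was made. The naming rule leaves out other genes of these complexes, described below, so the shares hold for the named genes only. Of the genes left out, 2 of 5 of the ATP synthase, 2 of 4 of complex II and 18 of 29 of complex I (62.1%) were bound. Of those for ubiquinone synthesis, 1 of 7 was bound.

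**Figure D1:**
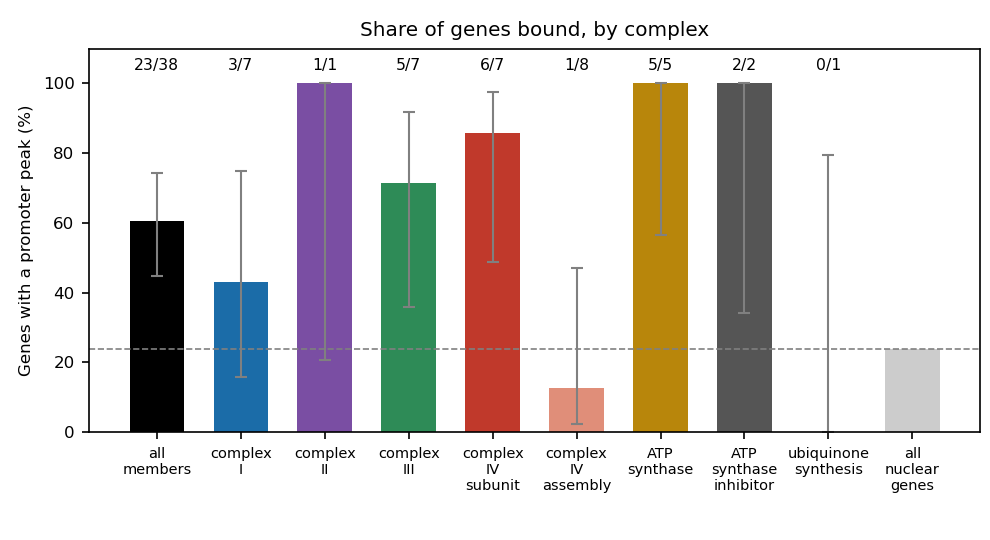
Share of genes with a DAF-16 promoter peak, in percent, for all 38 genes, for each complex and for all nuclear protein-coding genes. Each complex is shown by the genes of the naming rule only. Bars are shares, whiskers 95% Wilson intervals (counting error only), the ratios printed over the bars give bound genes over all genes of the group, and the dashed line marks the 23.9% of all genes, which complex IV assembly (1 of 8) and ubiquinone synthesis (0 of 1) did not reach.

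Peaks of the bound genes ranged from weak to strong, with a median above that of all bound genes. The strongest promoter peak of the 23 bound genes had a median signal of 158, from 48.7 at nuo-3 to 889 at mai-1, against a median of 122 over all 4779 bound genes. Of the 23, 17 lay above that median, and 1, mai-1, was in the strongest 10%. Replicate 1's list held a matching summit for 22 of the 23 and replicate 2's for all 23. Both lists matched for 22 of 23 genes, against 80.8% of all bound genes.

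**Figure D2:**
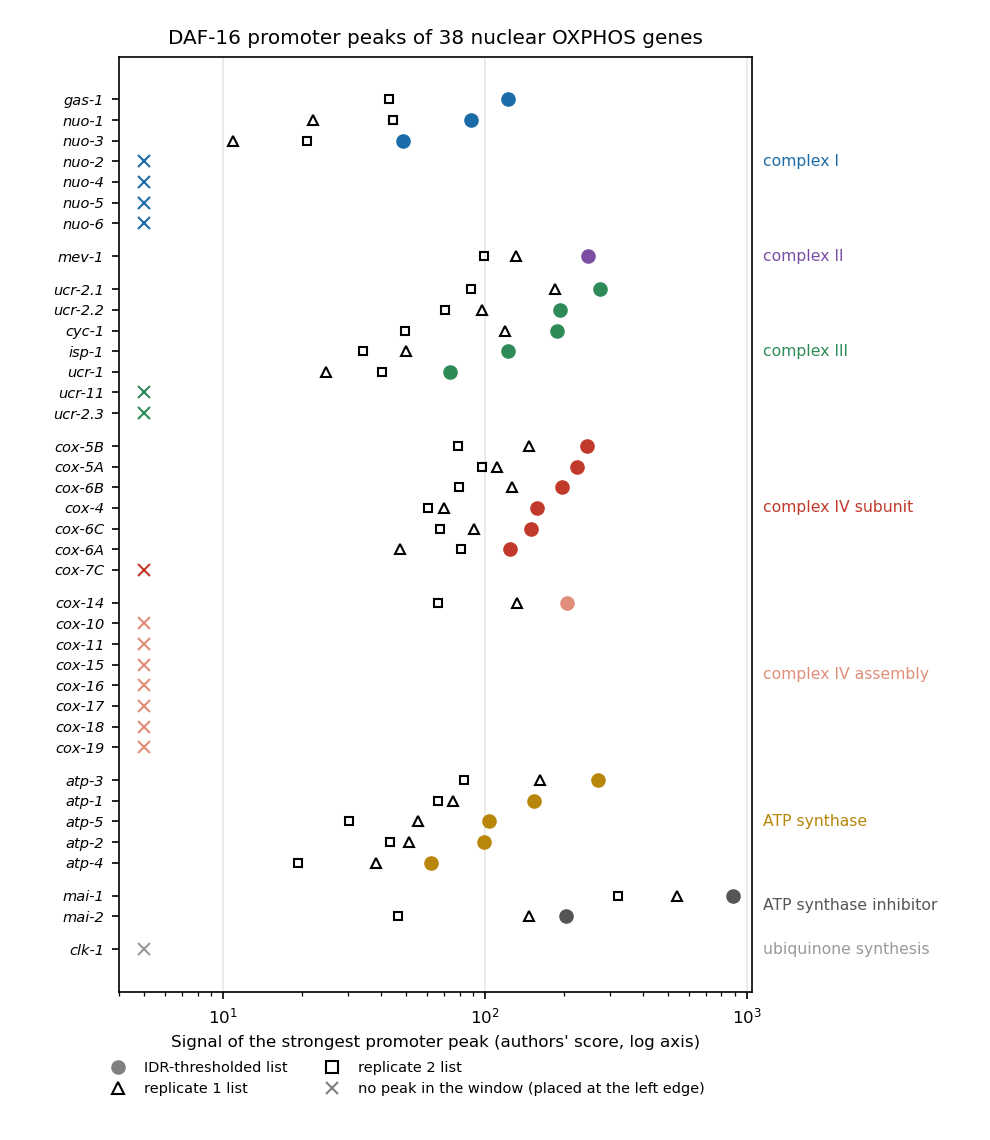
Signal of the strongest promoter peak of each of the 38 genes on a log axis, grouped by complex, in the IDR-thresholded list (filled circles), replicate 1 (triangles) and replicate 2 (squares). Crosses at the left edge mark the 15 genes without a peak in the window; mai-1 stands apart at 889, and gas-1 has no replicate 1 point.

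The DNA under the peaks is shown for 9 summits, chosen after their values were seen. They show peaks from complexes I to IV, the ATP synthase and its inhibitors, and include the 2 peaks that hold a DBE or a GATA sequence. Each line gives 75 bp on either side of the summit from the RefSeq sequence of build ce11, in the 5′ to 3′ direction of the gene. Capitals mark the DAF-16 binding element GTAAACA (DBE, at the cox-6B peak), the GATA sequence TGATAA (at the mai-1 peak), and 2 sequences noticed after the peaks had been read, AGTGCG and CGAGAC, on either strand. Lower case throughout means that none of these occurred.
nuo-1, chrII:11097525-11097675, forward strand: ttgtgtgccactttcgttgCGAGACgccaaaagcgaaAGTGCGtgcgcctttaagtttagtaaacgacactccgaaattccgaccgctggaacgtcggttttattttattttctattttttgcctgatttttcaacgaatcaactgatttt
mev-1, chrIII:10334066-10334216, forward strand: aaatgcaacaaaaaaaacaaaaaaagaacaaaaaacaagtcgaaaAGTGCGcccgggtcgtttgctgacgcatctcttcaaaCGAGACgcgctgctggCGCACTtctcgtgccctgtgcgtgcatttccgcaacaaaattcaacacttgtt
ucr-2.1, chrX:12018066-12018216, forward strand: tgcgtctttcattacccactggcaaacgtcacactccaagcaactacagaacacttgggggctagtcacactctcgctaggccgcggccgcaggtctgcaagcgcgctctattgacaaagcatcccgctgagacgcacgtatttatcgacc
isp-1, chrIV:8136217-8136367, reverse strand: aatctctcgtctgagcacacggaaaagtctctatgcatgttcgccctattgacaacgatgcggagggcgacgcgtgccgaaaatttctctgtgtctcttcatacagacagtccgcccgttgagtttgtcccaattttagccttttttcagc
cox-5A, chrIII:12905122-12905272, forward strand: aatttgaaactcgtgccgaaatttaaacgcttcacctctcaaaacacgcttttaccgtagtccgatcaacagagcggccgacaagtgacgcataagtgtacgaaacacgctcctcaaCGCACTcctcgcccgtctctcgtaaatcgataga
cox-6B, chrIII:2698858-2699008, forward strand: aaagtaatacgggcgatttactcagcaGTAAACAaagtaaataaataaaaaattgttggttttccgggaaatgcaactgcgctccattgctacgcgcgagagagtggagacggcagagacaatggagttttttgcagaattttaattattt
atp-2, chrIII:5228103-5228253, forward strand: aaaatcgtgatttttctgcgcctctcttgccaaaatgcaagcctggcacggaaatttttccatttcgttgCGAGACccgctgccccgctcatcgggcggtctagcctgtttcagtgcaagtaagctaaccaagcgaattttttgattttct
mai-1, chrX:3116601-3116751, reverse strand: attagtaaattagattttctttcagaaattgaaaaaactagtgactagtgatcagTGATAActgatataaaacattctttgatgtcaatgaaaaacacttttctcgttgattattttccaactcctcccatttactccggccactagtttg
mai-2, chrIV:3385429-3385579, forward strand: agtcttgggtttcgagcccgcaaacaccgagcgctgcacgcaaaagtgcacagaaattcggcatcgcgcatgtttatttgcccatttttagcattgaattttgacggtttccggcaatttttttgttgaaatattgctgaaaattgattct
These stretches held 31.1% (mai-1) to 55.6% (ucr-2.1) G and C.

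At complex I, where electrons enter from NADH, bound and unbound subunit genes were mixed, and the bound ones had the lowest median signal of the groups, 88.3. The strongest was at gas-1, which encodes a core subunit. Its signal was 123 in the IDR list and 43.1 in replicate 2, at a summit 344 bp upstream of the start (position 15590741 of chromosome X). Replicate 1 had no summit within 100 bp, and its strongest in the window reached 2.203, so the gas-1 peak rests on replicate 2. The peak was also in the window of usp-33. At nuo-1, the flavoprotein subunit that takes electrons from NADH, the signal was 88.3, with 22.0 in replicate 1 and 44.8 in replicate 2. Its summit, at 11097600 of chromosome II, lay 237 bp upstream of the start, in exons of the non-coding RNA genes C09H10.11 and C09H10.13, and within the window of the ribosomal protein gene rpl-36.A. The accessory subunit gene nuo-3 had the weakest peak of the 23 bound oxidative phosphorylation genes, 48.7, with 10.9 and 20.9 in replicates 1 and 2, 11 bp upstream of the start at 14797555 of chromosome IV, and shared it with arl-8 and another protein-coding gene. At each of these 3 genes the replicate 1 value was thus lower than that of replicate 2, or missing.

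The other 4 complex I genes of the set had no peak in the window. These were nuo-2 and nuo-5, which encode subunits of the peripheral arm, and the accessory subunit genes nuo-4 and nuo-6. The nearest summit lay 10087 bp upstream of nuo-2 (signal 69.5), 2888 bp downstream of the start of nuo-4 (232), 4380 bp upstream of nuo-5 (68.6) and 9845 bp downstream of the start of nuo-6 (323). They lay well outside the window.

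The complex II gene of the set, mev-1, encodes the cytochrome b560 membrane anchor of succinate dehydrogenase. Its peak had a signal of 247, with 132 in replicate 1 and 98.9 in replicate 2, and its summit at 10334141 of chromosome III lay 136 bp upstream of the start. It ranked 833 among the strongest promoter peaks of the 4779 bound genes. The same peak lay nearer to the start of jmjd-4, so the mev-1 call depends on how a shared peak is given to genes.

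Complex III hands electrons from ubiquinol to cytochrome c. In the set, the genes of its electron carriers cytochrome c1 and the Rieske protein were bound, as were 3 of 4 core protein genes. The core protein gene ucr-2.1 had 275, with 186 in replicate 1 and 88.2 in replicate 2, at 12018141 of chromosome X, 288 bp upstream of its start and nearer to the start of nmat-1. Its paralogue ucr-2.2 had 193, with 97.2 and 70.3, at 15173704 of chromosome X, 200 bp upstream. The cytochrome c1 gene cyc-1 had 188, with 119 and 49.4, 314 bp upstream at 8024736 of chromosome I. All 3 ranked above the median bound gene in the IDR list and were stronger in replicate 1.

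The Rieske iron-sulfur protein gene isp-1 had a peak of 123 at 237 bp upstream, with 50.1 and 34.3 in replicates 1 and 2, and shared it with islo-1, whose start was nearer. The weakest of the complex was that of the core protein gene ucr-1, 73.6, with 24.8 in replicate 1 and 40.6 in replicate 2, at 5592002 of chromosome III, 133 bp upstream and shared with ddx-15. The third core paralogue, ucr-2.3, was unbound, its nearest summit 6253 bp upstream (signal 53.8). The small subunit gene ucr-11 was unbound as well, with a summit 732 bp downstream of its start (47.98), past the window's limit of 300 bp.

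In complex IV, cytochrome c oxidase, 6 of 7 subunit genes and 1 of 8 assembly genes were bound, and the interval of the assembly share covers the 23.9% of all genes. With either replicate left out the assembly count was 3 of 8, and with the first gene of a same-strand run counted too, it was 6 of 8 beside 6 of 7 subunit genes. The 3 strongest subunit peaks were at cox-5B, cox-5A and cox-6B. At cox-5B the signal was 246, with 147 in replicate 1 and 78.6 in replicate 2, and the summit, at 9788734 of chromosome I, lay 9 bp downstream of the start in the gene's 5' UTR, the only bound gene with its strongest summit past the start. At cox-5A it was 225, with 111 and 97.2, at 12905197 of chromosome III, 294 bp upstream. At cox-6B it was 196, with 127 and 79.6, at 2786023 of chromosome III, 179 bp upstream of an internal start. That peak lay nearest to Y71H2AM.20 and was also in the window of nduc-2, itself a complex I subunit gene.

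A further cox-6B peak of 52.5, with 24.3 in replicate 2 and no match in replicate 1, lay 730 bp upstream of the gene's outermost start, at 2698933 of chromosome III. It was shared with slc-30A9. The remaining subunit peaks were 158 at cox-4 (434 bp upstream, in an intron), 150.3 at cox-6C (394 bp upstream, shared with grld-1) and 124 at cox-6A. The cox-6A peak, the weakest of the complex, had 47.4 in replicate 1 and 80.9 in replicate 2 and lay 810 bp upstream at 5080914 of chromosome III. The small nuclear RNA gene F54D8.7 lay within 75 bp of that summit, as a tRNA, snRNA, snoRNA or rRNA gene did at 1 of 26 peaks of these genes and at 2.77% of all 4693 promoter peaks. Such genes occur in near-identical copies, and whether this had a part in the cox-6A peak was not tested. The subunit gene cox-7C was unbound, with its nearest summit 965 bp downstream of the start (102).

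The roles of the 8 complex IV assembly genes are those of their yeast and human homologues. Of these genes, cox-14 alone was bound, with a signal of 205, 132 in replicate 1 and 66.0 in replicate 2. Its summit, at 10218782 of chromosome III, lay 160 bp upstream of cox-14 and nearer to the start of rde-4, the RNA interference factor. The haem A enzymes' genes cox-10, the haem farnesyltransferase, and cox-15, the haem A synthase, had no peak in the window, and their nearest summits lay 1872 bp (signal 119.7) and 4203 bp (181) upstream. Nor had the copper delivery genes cox-11 (3626 bp upstream, 502) and cox-17 (2346 bp upstream, 44.6).

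The membrane insertion gene cox-18 had its nearest summit 3071 bp upstream (231), the assembly factor gene cox-16 had it 21148 bp upstream (42.2), and cox-19, also an assembly factor gene, had it 988 bp downstream of its start (692). The last was stronger than all but 1 of the promoter peaks of the 38 genes, and it lay outside the cox-19 window. The ubiquinone synthesis gene clk-1, which encodes the demethoxyubiquinone hydroxylase, had its nearest summit 2693 bp upstream (59.3).

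All 5 ATP synthase genes of the set were bound, at a wide range of signals, while of 5 others outside it 2 were bound. The strongest was atp-3, which encodes the stator subunit OSCP, with 270.1 in the IDR list, 163 in replicate 1 and 83.3 in replicate 2. Its summit lay 98 bp upstream at 5430006 of chromosome I, in exons of the non-coding RNA genes F27C1.16 and F27C1.17, and was shared with F27C1.2. Of the catalytic head genes, atp-1 (subunit alpha) had 154, with 75.6 in replicate 1 and 66.0 in replicate 2, and atp-2 (subunit beta) had 99.1, with 51.2 and 43.4. The atp-1 summit, at 12652269 of chromosome I, lay 8 bp upstream and was shared with mcrs-1. The atp-2 summit, at 5228178 of chromosome III, lay 239 bp upstream and was shared with C34E10.10 and C34E10.12.

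The stator genes atp-5 (subunit d) and atp-4 (coupling factor 6) had 103 and 62.0. The atp-5 peak, with 55.5 in replicate 1 and 30.3 in replicate 2, lay 267 bp upstream at 11124134 of chromosome V and nearer to lmtr-3. The atp-4 peak, the weakest of the complex, had 38.3 and 19.3 and lay 481 bp upstream at 6427593 of chromosome V, in the 3' UTR of its upstream neighbour alh-4. All 5 ATP synthase peaks were stronger in replicate 1 than in replicate 2, as were those of 69.6% of all bound genes.

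Both genes for homologues of IF1, the small protein that inhibits the ATP synthase when it runs in reverse, were bound, and mai-1 had by far the strongest peak of the set. It had 889 in the IDR list, 541 in replicate 1 and 321 in replicate 2, and ranked 13 among the 4779 bound genes. The summit stood 877 bp before the mai-1 start (3117466 of chromosome X), in the 3' UTR of spc-1, the alpha spectrin gene on the same strand. Nearer to mai-1 were a peak of 215, with 112 and 74.95 in replicates 1 and 2, 87 bp upstream at 3116676, and a peak of 88.7, with 44.6 and 78.3, 385 bp upstream of an internal start at 3115963. Without the peak in spc-1, the strongest mai-1 signal was thus 215. At mai-2 the signal was 203, with 147 in replicate 1 and 46.5 in replicate 2, 406 bp upstream at 3385504 of chromosome IV.

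The summits gathered shortly before the start. The strongest summit lay upstream of the start in 22 of the 23 genes, against 89.9% of all bound genes, and within 500 bp upstream in 20 of 23, against 67.6%. The median distance was 239 bp upstream, against 211 bp for all bound genes. By annotation, 15 of the 23 summits were intergenic, 3 in exons of non-coding genes, 2 in introns, 2 in 3' UTRs and 1 in a 5' UTR. No shares over all bound genes are given for these classes, so they only describe the 23. Just inside the window's upstream limit were mai-1 at 877 bp and cox-6A at 810 bp.

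**Figure D3:**
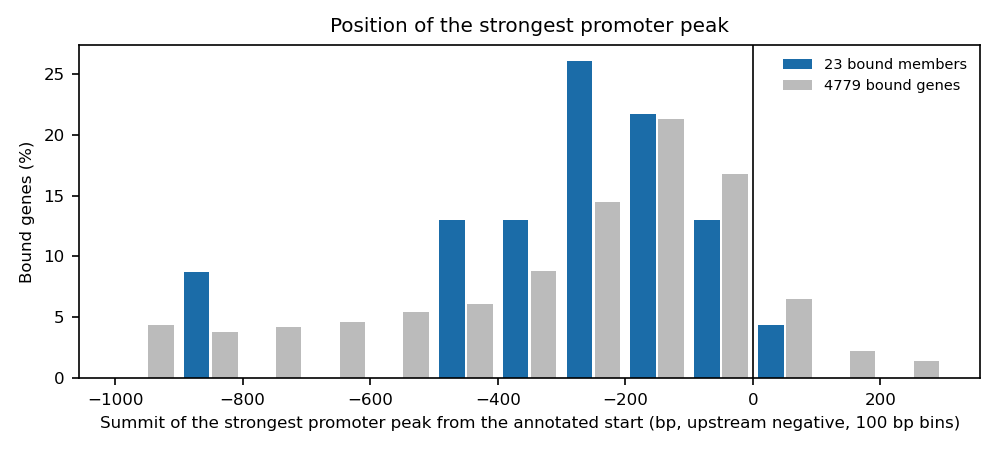
Distance of the strongest promoter summit from the annotated start (bp, upstream negative, 100 bp bins), as a percent of the 23 bound oxidative phosphorylation genes and of all 4779 bound genes. The 23 genes lie mostly within 500 bp upstream (20 of 23), with cox-6A and mai-1 farther away and cox-5B alone past the start.

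Many of these promoters were shared. For 14 of the 23 bound genes the strongest peak also lay in the window of another protein-coding gene, against 35.4% of all bound genes. For 17 the gene's own start was the nearest, a count given without a share over all bound genes. For mev-1, ucr-2.1, isp-1, cox-6B, cox-14 and atp-5 another start was nearer. Of the 23, 2 genes had more than 1 window peak, mai-1 with 3 and cox-6B with 2, against 714 of all 4779 bound genes.

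The unbound genes stood mostly behind another gene of the same strand. C. elegans joins many genes into operons, in which downstream genes are transcribed from the first gene's promoter, and the annotation used does not list operons. A rule chosen after seeing the data therefore took runs of same-strand genes with gaps of at most 500 bp. Of the 38 genes, 13 had such a neighbour, and 3 of these were bound, against 744 of 3612 genes of all kinds with such a neighbour (20.6%). The other 25 had none, and 20 of these were bound, against 24.7% of all other genes. Thus 10 of the 15 unbound genes stood in a run, and the 5 that did not were nuo-6, ucr-2.3, cox-7C, cox-10 and cox-16. Of all 19973 nuclear protein-coding genes, bound or not, 3612 had such a neighbour. The share among all unbound genes is not given, so the 10 of 15 only describes these genes. The first gene of the run was bound for 12 of the 13, against 36.1% of the 3612.

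The peaks at the first genes before unbound genes ranged in signal from 36.3 to 502, beside 48.7 to 889 at the 23 bound genes. Upstream of cox-11 the run began at lin-54, with 502 in the IDR list, 275 in replicate 1 and 203 in replicate 2. Upstream of ucr-11 it began at dad-1 (232, with 145 and 76.7), upstream of cox-18 at Y55F3AR.2 (231, with 129 and 103), upstream of cox-15 at rpn-9 (181, with 106 and 41.6), and upstream of nuo-4 at syf-2 (150.01, with 87.4 and 32.6). These 5 were matched in both replicates and stronger in replicate 1. Weaker were Y45G12B.2 before nuo-5 (68.6, with 12.8 and 21.6) and hpo-35 before cox-19 (36.3, with 11.2 and 15.1). Before clk-1, toc-1 had 59.3, with 47.7 in replicate 1 and no match in replicate 2. Before cox-17, ubc-20 had 44.6, with 19.7 in replicate 2 and no match in replicate 1. For cox-11, cox-15, cox-17, cox-18, nuo-5 and clk-1 the first gene's peak is the same peak as the nearest summit given above.

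The gap between nuo-2 and the gene before it, T10E9.14, was 19 bp, and T10E9.14, the first gene of that run, was unbound. For the other 9 unbound genes the gap to the preceding gene was 91 to 118 bp. The 3 bound genes of the 13 were atp-4, ucr-2.2 and cyc-1, with gaps of 95, 267 and 457 bp. With the first gene of the run counted too, 32 of the 38 genes were bound (84.2%), against 28.4% of all genes. Complex IV assembly then had 6 of 8 and complex I 5 of 7. Whether any of these runs is 1 transcript was not tested.

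**Figure D4:**
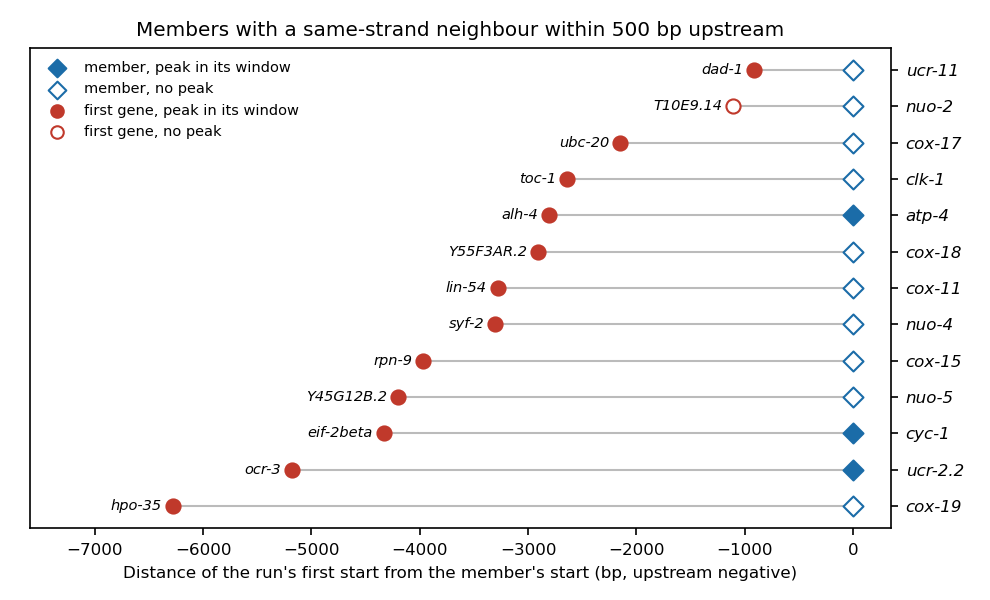
The 13 oxidative phosphorylation genes with a same-strand neighbour ending within 500 bp upstream (diamonds at 0, filled where bound) and the first gene of each run (circles, filled where bound), by distance between their starts in bp. The first gene was bound in 12 of the 13 runs, T10E9.14 before nuo-2 being the exception, and 3 of the 13 genes themselves were bound.

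Weak peaks stood in the window of several unbound genes below the IDR threshold. In the authors' pooled list, 9 of the 15 unbound genes had a summit in the window, against 12.8% of all 15194 unbound genes. The highest were 28.5 at cox-17, 24.9 at cox-10, 23.1 at clk-1 and 21.3 at cox-19, all below 35.4, the lowest signal in the IDR list. For cox-10 replicates 1 and 2 had 9.55 and 18.5, and for cox-19 they had 28.6 and 15.7. The pooled list includes background regions, so these are values and not calls.

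The DAE and the GATA sequence, elements often sought at DAF-16 sites, stood at fewer of these peaks than of all promoter peaks, while the intervals of the DBE and the E-box covered the shares of all promoter peaks. Either strand was searched for each motif up to 75 bp from the summit at the 26 window peaks of the 23 bound genes. The DBE (GTAAACA), the core FOXO sequence, stood at 1 of 26 (3.85%, 95% Wilson interval 0.68 to 18.89), the weaker cox-6B peak, against 9.06% of all 4693 promoter peaks. The DAF-16 associated element (DAE, CTTATCA) stood at 0 of 26 (interval 0 to 12.87%), against 21.1%. The GATA sequence TGATAA, which every DAE contains on its other strand, stood at 1 of 26 (3.85%, 0.68 to 18.89), the mai-1 peak of 215, against 40.2%. Low shares were not particular to these genes. At mitochondrial and cytosolic ribosomal protein peaks the GATA sequence stood at 6.25% and 4.69%, and the DAE at 0% of both. At peaks of other genes of the pathway, described below, the GATA sequence stood at 22.2% and the DAE at 3.7%. The E-box CACGTG stood at 0 of 26 (0 to 12.87%), against 5.77%. As control letters, the reversed DBE (ACAAATG) stood at 0 of 26, against 4.13%, and the reversed DAE (ACTATTC) at 1 of 26, at atp-4, against 1.98%. Within 150 bp of the summit, the GATA sequence stood at 6 of 26 peaks, against 52.8%, the DAE at 1, against 26.8%, and the E-box at 1, against 8.76%. Within 50 bp the reversed DAE stood at 0, against 1.11%. A match is a description of the letters and not of a site, and its absence covers this window only.

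The 26 peaks also differed from all promoter peaks in base composition. The 26 peaks had a median of 44.7% G and C within 75 bp of the summit, against 38.4% over all promoter peaks. In quintiles of all promoter peaks by G and C content, from low to high, the GATA sequence stood at 62.8%, 53.9%, 43.5%, 32.1% and 8.52%. The DAE stood at 32.2%, 29.9%, 22.3%, 17.7% and 3.51% in the same order. The 26 peaks fell 1, 2, 2, 8 and 13 into those quintiles, with the single GATA match in the lowest. In quintiles by signal from weak to strong the GATA share was 27.1%, 35.1%, 41.1%, 46.4% and 51.2%, and the 26 peaks fell 2, 4, 5, 9 and 6. The DAE share by signal was 11.9%, 18.6%, 21.7%, 26% and 27.3%. By composition, most of the 26 thus lay in quintiles with a GATA share below the 40.2% of all promoter peaks. By signal, most lay in quintiles with a share above it. What part composition had in the low GATA and DAE counts was not tested.

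**Figure D5:**
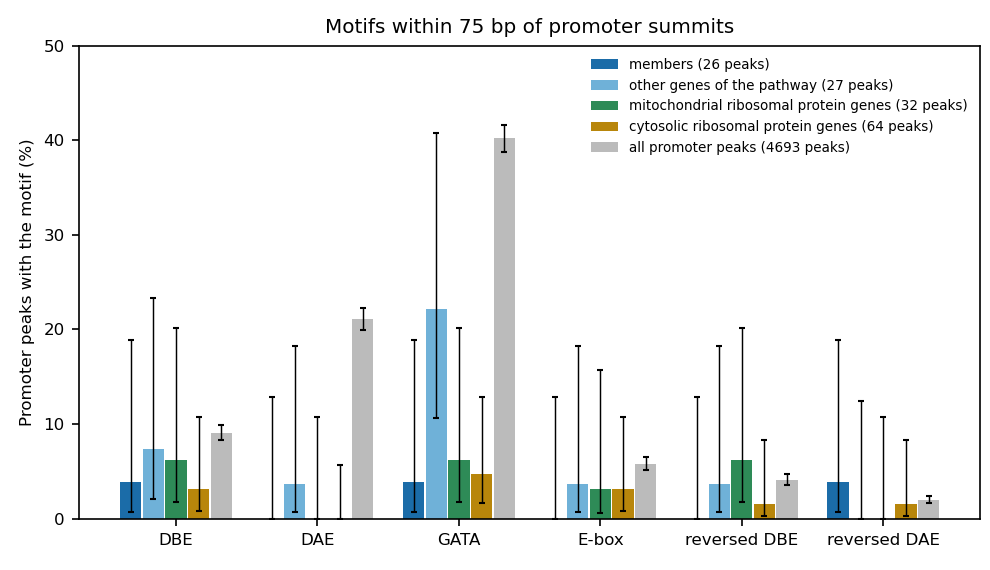
Share of promoter peaks with each motif within 75 bp of the summit, in percent with 95% Wilson intervals (counting error only), for the 26 peaks of the 38 genes, other genes of the pathway (27), mitochondrial (32) and cytosolic (64) ribosomal protein genes and all 4693 promoter peaks. The GATA share is 3.85% for the 26 peaks and 40.2% for all promoter peaks, and the DAE share 0 and 21.1%. For mitochondrial and cytosolic ribosomal protein genes the GATA share is 6.25% and 4.69%, and the DAE share 0 for both.

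Genes of the same pathway that the naming rule leaves out were bound often as well. Of 50 such genes, 25 were bound (50%, 36.64 to 63.36), with signals from 37.2 to 361 and a median of 100.5. Other complex I genes were bound at 18 of 29 (62.1%, 44 to 77.31), beside the 3 of 7 given above. Other complex II genes were bound at 2 of 4, other ATP synthase genes at 2 of 5, other complex IV assembly and cytochrome haem genes at 1 of 3, cytochrome c genes at 1 of 2 and other ubiquinone synthesis genes at 1 of 7 (14.3%), the prenyl transferase gene coq-1.

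The 4 strongest peaks of these 50 genes were at sdha-1, ndub-7, ndub-8 and ndua-7. The succinate dehydrogenase flavoprotein gene sdha-1 had 361, with 158 in replicate 1 and 179.7 in replicate 2. The complex I accessory subunit gene ndub-7 had 352, with 198 and 162, in a peak shared with mce-1. The accessory subunit gene ndub-8 had 241, with 182 and 70.9, shared with cup-14, and ndua-7 had 239, with 95.4 and 108. Mitochondrial ribosomal protein genes were bound at 32 of 70 (45.7%) and cytosolic ribosomal protein genes at 63 of 78 (80.8%), so frequent binding was not restricted to the respiratory chain.

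In most pairs of paralogues 1 copy was bound. The sdha-1 promoter was bound and that of sdha-2 was not. Among the ATP synthase membrane-part genes, asb-2 (signal 120.001) was bound and asb-1 was not, and asg-2 (218) was bound and asg-1 was not. Of the cytochrome c genes cyc-2.1 was bound (94.9) and cyc-2.2 was not. Both copies were bound for gas-1 (123) and nduf-2.2 (129.8), and for mai-1 and mai-2, while of the core protein genes ucr-2.1 and ucr-2.2 were bound and ucr-2.3 was not.

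Across the chromosomes, the bound genes were 5 of 10 on I, 1 of 3 on II, 7 of 11 on III, 4 of 6 on IV, 2 of 4 on V and 4 of 4 on X. The shares of all genes were 24.1%, 22.1%, 30.5%, 23.7%, 19.9% and 27.4% in the same order. The X-linked 4 were gas-1, ucr-2.1, ucr-2.2 and mai-1. The replicates ranked the bound genes alike, with Spearman's rho of 0.73 over the 22 genes matched in both, against 0.74 over 3862 of all bound genes, as a description across genes of the same 2 libraries. Of those 22, 18 were stronger in replicate 1, against 69.6% of all bound genes. The 4 exceptions were nuo-1, nuo-3, ucr-1 and cox-6A.

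Under the other definitions of binding, the count of bound genes was lowest where shared or weak peaks were left out, and highest, at 32, where the first gene of a run was counted. A window of 500 bp before to 100 bp after the start left 22 genes bound (57.9%, against 18.9% of all genes), cox-6A being lost. One of 2000 bp before to 500 bp after gave 25 (65.8%, against 29.4%), adding cox-10 and ucr-11. Giving each peak to its nearest start left 17 (44.7%, against 19.8%), and keeping the stronger 50% of peaks left 17 (44.7%, against 13.4%). Requiring a summit within 100 bp in both replicates left 22 (57.9%, against 19.6%), gas-1 being lost, and using each gene's outermost start alone left 23 (60.5%, against 22.4%).

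From the strongest peaks of replicate 2 alone, 25 genes were bound (65.8%, against 23.7%), and from those of replicate 1 alone, 23 (60.5%, against 22.7%). Replicate 2 alone added cox-10 and cox-19. Replicate 1 alone lost gas-1 and nuo-3 and added cox-17 and cox-19. Over all these definitions and the one that counts the first gene of a run, 10 genes were bound throughout. They were atp-1, atp-3, cox-4, cox-5A, cox-5B, cox-6C, cyc-1, mai-1, mai-2 and ucr-2.2. Unbound throughout were cox-16, cox-7C, nuo-2, nuo-6 and ucr-2.3.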

How the data were processed

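Chromatin immunoprecipitation of tagged DAF-16 was sequenced in 2 biological replicates of L4 larvae, per the labels, which do not say how the cultures were separated. Per the submitters' file notes, the lists were made from the replicates' alignments and 1 further file, which also entered the control-normalized signal. The authors' peak lists on build ce11 were used, 1 per replicate, 1 pooled and 1 thresholded by IDR, per the file names. Their signal column is a score the authors deposited without stating its scale, and it served for order and description inside a list. The scores of the 2 replicates were also set side by side as deposited, without being put on a common scale. The IDR threshold, the aligner and the peak caller with their versions were not given in the sources used here.

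Peaks were joined to the Ensembl release 115 annotation of WBcel235 by transcript starts of protein-coding transcripts, and to the RefSeq sequence of the assembly. A replicate summit within 100 bp counted as a match. Motif windows reached 75 bp to either side of a summit. Intervals are Wilson intervals at 95%. With 1 group there is no test over samples. The genes, lists, motifs and complexes were chosen with earlier results of these data known. Every gene of the rule was named. Full values were given for the 3 strongest and the weakest bound gene of each complex, the nearest summit for unbound genes, and for other genes of the pathway the 4 strongest and the paralogue pairs. Alternatives were other windows, starts, peak sets, single replicates and motif windows; the rule of same-strand runs and the sequences AGTGCG and CGAGAC were added after seeing the data. Window assignment and motif search were tested on simulated data. The lists on build ce10 were not used here. The software was Python 3.11.15 with matplotlib 3.10.9, scipy 1.17.1, pandas 2.3.3 and numpy 2.4.6.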

Additional observations from a re-analysis of the deposited data

How the results depend on the processing

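No paired analysis was possible because the series holds 1 group. The count of bound genes stayed within 1.5 times of 23 under every alternative run, from 17 with nearest starts or the stronger 50% of peaks to 32 with the first gene of a same-strand run counted, and from 23 to 25 with 1 replicate left out. Counts by complex were small and moved more. With nearest starts, complex II had 0 of 1, complex III 3 of 7 and complex IV assembly 0 of 8 bound. In the stronger 50% of peaks, complex I had 1, the ATP synthase 2 and the other genes of the pathway 12 of 50. With the wider window complex IV assembly had 2. With 1 replicate left out, complex I had 1 to 3, and complex IV assembly 3 either way. With the first gene of a run counted, complex I had 5, complex IV assembly 6 and ubiquinone synthesis 1. Within 150 bp of the summit the DAE stood at a peak of 1 gene (mev-1), the GATA sequence of 5 and the E-box of 1 (mai-2), against 26.8%, 52.8% and 8.76% of all promoter peaks, and within 50 bp the reversed DAE of 0, against 1.11%. Read depth is unknown, so an unbound gene is one without a peak past the authors' threshold at that depth, and nuo-3 and gas-1 were unbound without replicate 2.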

Other observations

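Some 6-letter sequences recurred at the peaks of oxidative phosphorylation genes. They were noticed by reading the sequences, so their counts are a description with no test. AGTGCG, on either strand within 75 bp of the summit, stood at 9 of 26 peaks (34.6%), those of nuo-1, nuo-3, mev-1, cyc-1, cox-5A, cox-6B, atp-5 and 2 of mai-1. It stood at 7 of 27 peaks of other genes of the pathway (25.9%), of which that of nduc-2 is the cox-6B peak, and at 12.5% of peaks of mitochondrial and of cytosolic ribosomal protein genes (4 of 32 and 8 of 64). Over all promoter peaks it stood at 291 of 4693 (6.2%). The mev-1 peak held it on both sides of a CGAGAC.

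The sequence CGAGAC stood at 7 of 26 peaks (26.9%), those of nuo-1, mev-1, ucr-1, cox-6A, cox-14, atp-2 and atp-4. It stood at 5 of 27 peaks of other genes of the pathway (18.5%), at 4 of 32 of mitochondrial ribosomal protein genes (12.5%) and at 23 of 64 of cytosolic ribosomal protein genes (35.9%). Over all promoter peaks it stood at 404 (8.61%). The nuo-1 peak, which is also that of rpl-36.A, and the mev-1 peak held both sequences. The peaks of these genes had more G and C than all promoter peaks, and what part this had in the counts was not tested.

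The mitochondrial genome, which encodes some further subunits of complexes I, III and IV and of the ATP synthase, held 29 peaks of the IDR list. They fell into 2 distinct intervals, positions 1 to 13398 and 13532 to 13794 of its 13794 bp, so nearly the whole molecule was called. Of the summits, 23 lay in protein-coding genes alone, and that at position 9426 lay in both a protein-coding and a tRNA gene. Of the 12 protein-coding genes, 10 held at least 1 summit. The share of the molecule that is protein-coding is not given beside these counts. Signals ran from 62.4 to 7975 with a median of 845, against a median of 107 over the nuclear peaks, and 9 exceeded the strongest nuclear peak, 1392. Replicate 1 had 29 mitochondrial peaks, up to 4985, and replicate 2 had 26, up to 3629. The control sample was not analysed here, and what part mitochondrial DNA copy number had in these signals was not tested.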
